A study of Oryctolagus cuniculus with 3 samples.

Results

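Matricellular and injury-response matrix proteins are secreted into the vessel wall without forming its load-bearing fibres. Their transcripts were followed here through 10 genes: CTHRC1, POSTN, TNC, THBS1, THBS2, SPARC, FN1, SPP1, CYR61 and CTGF. A gene was taken where one of the symbols of its row equalled a member's name, and each of the 10 names found 1 row among the 15248 rabbit rows of the table. RNA came from the media of the aorta, the layer of smooth muscle in its wall, of male rabbits of strain JW/CSK at 9 months of age. The first group was non-transgenic on chow, the second non-transgenic after 20 weeks on a diet high in cholesterol, and the third transgenic for mouse PGC-1alpha (a coactivator of mitochondrial genes) and fed in the same way. RNA of 5 rabbits was pooled for each group, so there is 1 library per group, no spread between animals and no test. The sources used here do not give the promoter that drives the transgene or the number of founder lines.

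Proteins of this class bind integrins and other cell receptors, growth factors and collagen, and so alter how cells adhere, migrate and divide. Most are scarce in a resting adult artery and are made again after injury, when contractile smooth muscle cells change to a synthetic state. Fibronectin and osteopontin also stand in lesions of the artery wall, where macrophages are a further source of osteopontin. CYR61 and CTGF (CCN1 and CCN2 in current nomenclature) are known as targets of TGF-beta, of the mechanosensitive coactivator YAP and of serum response factor.

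Values are FPKM, fragments scaled to transcript length and to the mapped total, and can be compared between genes because they are scaled to length. Runs of 3 values are in the order chow, non-transgenic on cholesterol, transgenic on cholesterol. Differences are of log2(FPKM + 1), and 2-fold means a difference of at least 1 on that scale. FPKM summed to 824460 to 943181 per library, and 13641 to 14113 rows were above 0. Mouse Ppargc1a was listed at 0, 0 and 12.8 FPKM, which follows the labels. The contractile markers stood above all other marker lists in every library, at a summed 27883, 11385 and 15567 FPKM over 8 rows, which follows the label of media. In the cholesterol libraries the macrophage markers came nearest, at 4403 FPKM (non-transgenic) and 3943 FPKM (transgenic). The labels place the chow library on a different sequencing lane from the other 2, so lane and diet cannot be told apart.

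On chow the 10 genes ranged from 0.280 FPKM for CTHRC1, rank 12165 of the rabbit rows, to 2742 FPKM for SPARC, rank 53. Together they made up 0.496% of the summed FPKM on chow, 1.21% in non-transgenic rabbits on the diet and 0.934% in transgenic ones. SPARC held the top level of the 10 in every library and FN1 the next. SPARC alone made 58.6% of the members' sum on chow, 42.2% on the diet and 36.1% in the transgenic library. SPP1 went from 0.472% of that sum on chow to 15.9% and 19.4%. On chow the order from high to low was SPARC, FN1, CTGF, CYR61, SPP1, POSTN, THBS2, THBS1, TNC and CTHRC1. With no replicates, it cannot be said which neighbours in that order differ beyond their spread.

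**Figure D1:**
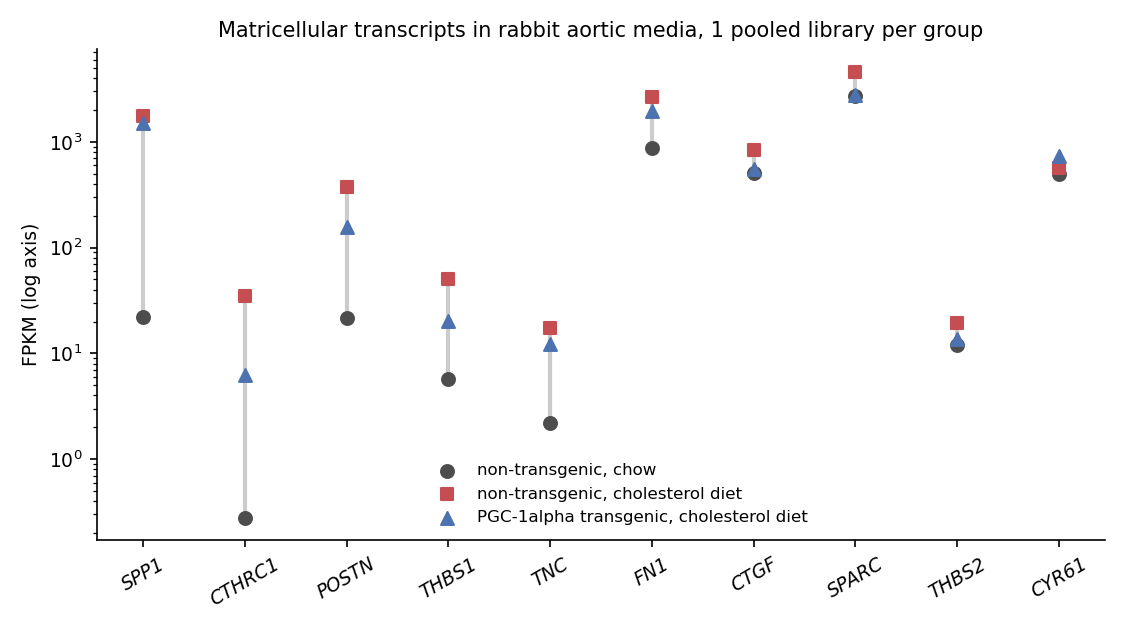
FPKM of the 10 matricellular genes on a log axis, ordered by their diet difference, with 1 symbol per pooled library (circle, chow; square, non-transgenic cholesterol; triangle, transgenic cholesterol) and a grey line over the range. SPP1, CTHRC1 and POSTN span the widest ranges, and CYR61 is the gene whose transgenic value (729) is the highest of its 3.

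On the cholesterol diet several of the 10 members stood far above chow in non-transgenic rabbits, led by osteopontin (SPP1), CTHRC1 and periostin (POSTN). All 10 members were above 0, and 6 were at least 2-fold higher: SPP1, CTHRC1, POSTN, THBS1, TNC and FN1. The background was 15.9% of the 11597 rabbit genes whose mean over the libraries reached 1 FPKM. None of the 10 was 2-fold lower, against 6.99% of all genes. The median difference of the members was 2.06, against 0.02 over all genes. CTGF, SPARC and THBS2 differed by 0.66 to 0.75 and CYR61 by 0.21, all under 2-fold.

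In transgenic rabbits on the diet the same proteins' transcripts were mostly lower than in non-transgenic ones, and CTHRC1, THBS1 and POSTN were so by at least 2-fold. That is 3 of 10 members, against 2.10% of all genes, and none was 2-fold higher, against 1.70%. Of the 10 differences 9 were below 0, and the median was -0.55, against -0.01 over all genes. CYR61 was the exception, at 0.35. The diet and genotype comparisons share the non-transgenic cholesterol library, so a high value there would raise one difference and lower the other.

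Against chow, the transgenic cholesterol library kept 6 members at least 2-fold higher, and they were the same 6 genes as in the diet comparison of non-transgenic rabbits. The background was 12.6% of all genes, and 2.53% of all genes were 2-fold lower, with none among the members. The median was 1.40, against 0.01 over all genes. SPARC, CTGF and THBS2 lay within 0.18 of their chow level on the log2 scale, the lowest being SPARC at 0.02. With the libraries rescaled to the same FPKM sum these values were 0.21 for SPARC, 0.33 for CTGF and 0.36 for THBS2. Each of these 3 comparisons shares a library with each of the others.

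**Figure D2:**
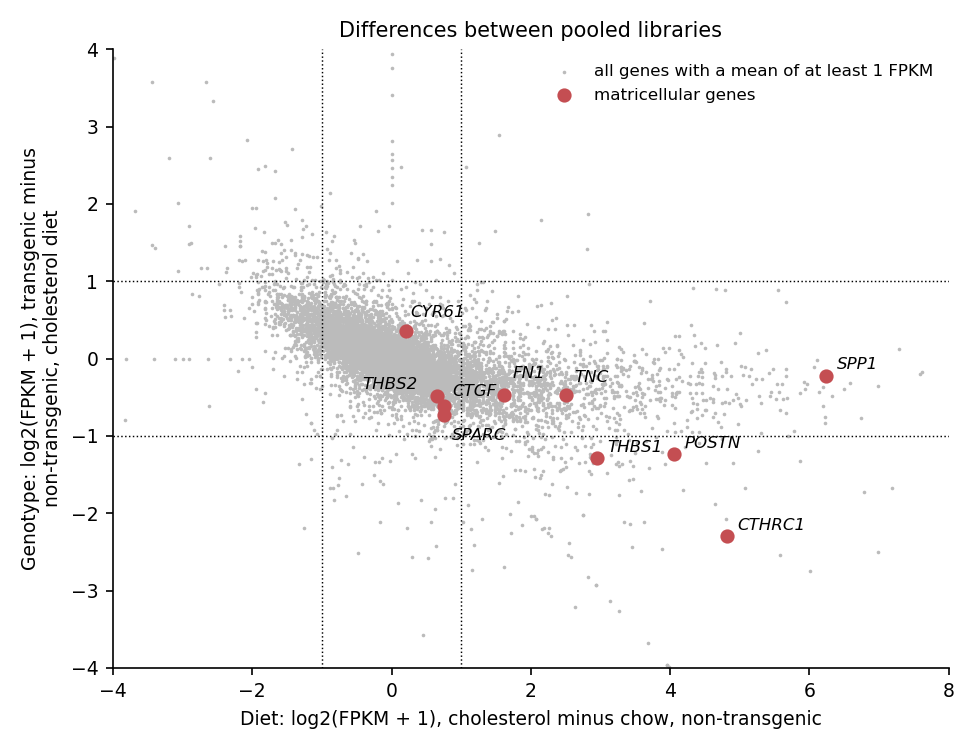
Diet difference (x axis) against genotype difference (y axis) of log2(FPKM + 1) for all 11597 genes in grey and the 10 matricellular genes in red, with dotted lines at 2-fold; 62 genes lie outside the axes. CTHRC1, POSTN and THBS1 sit beyond 2-fold in both, SPP1 is far to the right with a genotype difference of -0.22, and both axes share the non-transgenic cholesterol library.

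CTHRC1, a secreted glycoprotein first described in injured arteries of the rat, where it promotes cell migration, showed the largest genotype difference of the 10. It stood at 0.280, 35.0 and 6.30 FPKM (ENSOCUG00000009184, OryCun2.0 chromosome 3, 118774867 to 118791581). It was thus near absent on chow, high on the diet and intermediate in the transgenic library. The differences were 4.81 for the diet and -2.30 for the genotype, ranks 90 from the highest and 43 from the lowest among 11597 genes. Since the chow value is so low, the diet difference depends on the pseudocount, being 6.53 with 0.1 and 2.92 with 5. The gene passed the minimum of 1 FPKM through its 2 cholesterol libraries.

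POSTN encodes periostin, a protein that binds collagen, fibronectin and tenascin and aids collagen crosslinking. It stood at 21.4, 371 and 156 FPKM (ENSOCUG00000011482, scaffold GL018719, 553830 to 589016). The diet level was 17.4 times that on chow, and the non-transgenic level 2.37 times the transgenic one. On the log2 scale these are differences of 4.06 and -1.24. Within a library, CTHRC1 stood at 0.0131, 0.0944 and 0.0403 of the POSTN level, so the relative amount of CTHRC1 was also highest in the non-transgenic cholesterol library.

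TNC encodes tenascin C, a large glycoprotein that loosens cell attachment to fibronectin and appears in remodelling vessels. It stood at 2.20, 17.2 and 12.2 FPKM (ENSOCUG00000011500, scaffold GL018699, 12560655 to 12655465). Its diet difference was 2.51, or 1.63 with a pseudocount of 5. Its genotype difference was -0.47, under 2-fold, and the transgenic library stood 2.04 above chow.

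The thrombospondins differed from each other. THBS1, which can activate latent TGF-beta and restrains angiogenesis through CD36, stood at 5.75, 51.0 and 20.3 FPKM (ENSOCUG00000003792, chromosome 17, 32567494 to 32582489). THBS2, which also restrains angiogenesis and organises collagen fibrils but does not activate TGF-beta, stood at 11.9, 19.3 and 13.6 FPKM (ENSOCUG00000005371, scaffold GL019051, 67792 to 97500). THBS1 was the lower of the pair on chow and the higher in both cholesterol libraries. Its differences were 2.95 for the diet and -1.29 for the genotype, against 0.66 and -0.48 for THBS2.

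THBS1 is the member whose row shares a locus in the table with another gene. The locus runs from 32335308 to 32582489 and also holds FSIP1 (ENSOCUG00000003804, 32335308 to 32568554), whose annotated span overlaps that of THBS1 by 1061 bp. FSIP1 was listed at 0 in all 3 libraries. The sources used here do not say whether the counting used strand, so fragments from the overlap cannot be assigned to either gene with certainty.

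SPARC and FN1 were abundant in every library. SPARC, the collagen-binding protein osteonectin, stood at 2742, 4622 and 2778 FPKM (ENSOCUG00000012120, chromosome 3, 33118052 to 33137847). The transgenic level was 1.01 times that on chow, and the genotype difference was -0.73. FN1 encodes fibronectin, the adhesive scaffold on which collagen and other matrix proteins assemble, and stood at 874, 2683 and 1943 FPKM (ENSOCUG00000010104, chromosome 7, 156703390 to 156770766). Its differences were 1.62 for the diet and -0.47 for the genotype, and the transgenic level was still 2.22 times that on chow.

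SPP1, osteopontin, is a phosphoprotein that binds integrins and CD44 and is made by macrophages and by synthetic smooth muscle cells. It stood at 22.1, 1740 and 1493 FPKM (ENSOCUG00000022536, chromosome 15, 62156546 to 62163822). Its diet difference of 6.24 was rank 24 from the highest among 11597 genes, while the genotype difference was -0.22, or -0.09 when the libraries were rescaled to the same FPKM sum. All 12 macrophage markers tested also stood at least 2-fold above chow on the diet, against 15.9% of all genes. Of these, MMP12 (0 on chow), MSR1 (0.376), TYROBP (0.695) and AIF1 (0.659) passed the minimum of 1 FPKM through their cholesterol libraries. For them the filter favours a higher call. The list's sum over 13 rows was 51.4, 4403 and 3943 FPKM. Between genotypes 8 of the 12 markers were below 0 (median -0.10). The complement genes C1QB (1.79) and C1QC (1.42) were at least 2-fold higher (16.7%, against 1.70% of all genes). The scavenger receptor MSR1 (-1.88) was at least 2-fold lower (8.33%, against 2.10%). MMP12 and MARCO in that list were listed at 0 on chow. The ratio of SPP1 to a macrophage marker depended on the marker: it was 6.20, 4.01 and 4.29 for the glycoprotein CD68, 14.3, 0.855 and 0.743 for GPNMB, and 0.960, 10.4 and 3.32 for C1QC. The part of macrophages in the SPP1 level was not tested. In pooled bulk tissue, more cells of a type and more RNA per cell cannot be told apart.

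The CCN proteins CYR61 and CTGF bind integrins and heparan sulphate and respond within minutes to hours to growth factors and stretch. The transcripts of both were abundant, and neither differed by 2-fold in any comparison. CTGF stood at 503, 846 and 552 FPKM (ENSOCUG00000002835, chromosome 12, 122182644 to 122186019), with differences of 0.75 for the diet and -0.62 for the genotype. CYR61 stood at 494, 571 and 729 FPKM (ENSOCUG00000003905, chromosome 13, 79255237 to 79257963), with differences of 0.21 and 0.35. The pair was nearly level on chow, CTGF was the higher on the diet in non-transgenic rabbits, and CYR61 was the higher in the transgenic library. CYR61 is itself an immediate early gene. Of 9 other immediate early genes tested, 8 were higher in the transgenic than in the non-transgenic cholesterol library. CYR61 was also higher there, while CTGF was lower. At least 2-fold higher were 4 of the 9 (44.4%, against 1.70% of all genes), and the list's sum was 1070, 1122 and 2546 FPKM. On the diet 6 of the 9 were above 0 and 3 below, with 4 at least 2-fold higher (44.4%, against 15.9%). None of these defining genes was at 0. Their part in the CYR61 value was not tested.

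Ratios between related genes within a library do not depend on how the libraries were scaled, and 10 were computed. The pairs were chosen with the values known, and 4 are plotted. THBS1 stood at 0.484, 2.64 and 1.49 times the level of THBS2. SPARC stood at 1.14, 3.46 and 1.42 times the level of SPARCL1 (hevin), an antiadhesive relative of SPARC. TNC stood at 0.0449, 1.73 and 0.610 times the level of TNXB, tenascin X, which stabilises collagen in connective tissue. CTGF stood at 1.02, 1.48 and 0.757 times the level of CYR61. In these 4 pairs the non-transgenic cholesterol library had the highest ratio, with the transgenic library between the others in the first 3 and lowest for CTGF over CYR61. Over the 10 pairs that library had the highest ratio in 7, including POSTN over TGFBI at 0.211, 1.31 and 0.740. The transgenic library had the highest in 2, FN1 over SPARC at 0.319, 0.580 and 0.699 and SPP1 over FN1 at 0.0252, 0.649 and 0.769. Chow had the highest in 1, SPP1 over CD68.

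**Figure D3:**
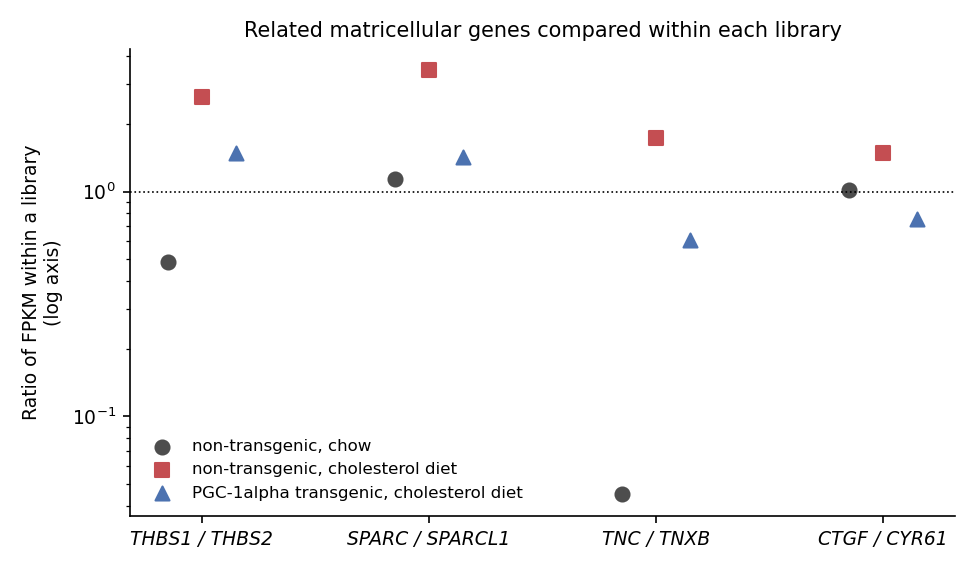
Ratio of FPKM for 4 pairs of related matricellular genes within each pooled library, on a log axis, with a dotted line where both genes are equal (circle, chow; square, non-transgenic cholesterol; triangle, transgenic cholesterol). Of the 4, the TNC to TNXB ratio moves the most, from 0.0449 on chow to 1.73 on the diet.

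Other matricellular proteins had a median difference of the opposite sign in both comparisons. Of 20 names, COMP had no row under that symbol and 8 rows were under the minimum of 1 FPKM. Of the 11 tested, the diet level of 5 was at least 2-fold lower (45.5%) and that of 2 higher (18.2%), against 6.99% and 15.9% of all genes, with a median of -0.85. The lower ones were TNXB at 49.1, 9.98 and 19.9 FPKM, SMOC1 at 81.5, 25.8 and 36.2, SMOC2 at 312, 110 and 170, the CCN protein NOV at 1162, 498 and 507, and THBS3 at 22.2, 10.1 and 10.7. The SMOC proteins are calcium-binding relatives of SPARC, and NOV is abundant in contractile smooth muscle. The higher ones were WISP1, a CCN protein of WNT signalling, at 3.13, 8.79 and 3.70, and TGFBI, a relative of periostin induced by TGF-beta, at 101, 282 and 211. Between genotypes 8 of the 11 were above 0 (median 0.20). WISP1 (-1.06) was the one gene of the list at least 2-fold lower (9.09%, against 2.10% of all genes), and none was 2-fold higher (against 1.70%).

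Receptors of these proteins split by gene. Of 18 names 17 were tested (ITGB6 had no row under that symbol), and 5 stood 2-fold or more above chow on the diet (29.4%, against 15.9% of all genes) and 3 below (17.6%, against 6.99%), with a median of 0.09. CD36, the thrombospondin and lipid receptor, stood at 3.05, 45.2 and 33.4 FPKM, and CD44, a receptor of osteopontin and hyaluronan, at 33.7, 155 and 96.7. The integrin chain ITGA4 stood at 0.523, 7.51 and 4.45, and ITGB3, a partner in binding osteopontin and fibronectin, at 9.68, 41.1 and 25.7. ITGA4 passed the minimum of 1 FPKM through its cholesterol libraries. STAB1, a scavenger receptor that clears SPARC, stood at 15.4, 61.9 and 52.6. The 3 lower ones were the integrin chains ITGA8 at 964, 340 and 597, ITGA9 at 65.5, 23.1 and 29.0, and ITGB8 at 13.7, 6.34 and 7.30. CD36, CD44, ITGA4 and STAB1 are also expressed by macrophages, whose markers are given above. Between genotypes no receptor differed by 2-fold (median 0.00). The largest differences were those of ITGA8 (0.81), CD44 (-0.67) and ITGB3 (-0.66).

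Of 17 tested genes of TGF-beta signalling, 2 stood at least 2-fold above chow on the diet (11.8%) and 1 below (5.88%), both shares near the 15.9% and 6.99% of all genes. The list's median was 0.18 for the diet, and none differed by 2-fold between genotypes (median -0.10). The ligand TGFB1 stood at 10.5, 35.9 and 25.0 FPKM and the coreceptor ENG at 16.0, 80.8 and 70.8. TGFB1I1, a focal adhesion protein of contractile cells, was the lower one, at 401, 194 and 276. SMAD6, an inhibitor of the pathway, stood at 40.0, 74.2 and 43.8, and LTBP2, of the latent TGF-beta binding protein family, at 314, 483 and 333.

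Of 20 genes of the YAP, TEAD and SRF regulators and their targets, 2 stood 2-fold or more above chow on the diet, a share under the 15.9% of all genes, and 4 below, a share over the 6.99%, with a median of -0.50. ANKRD1, a nuclear target of YAP, stood at 0.0355, 59.2 and 23.1 FPKM, with differences of 5.86 for the diet and -1.32 for the genotype. NUAK2, a kinase that feeds back on YAP, stood at 0.132, 3.07 and 1.36. Both passed the minimum of 1 FPKM through their cholesterol libraries. The 4 lower ones were the initiator of coagulation F3 (30.8, 10.4 and 13.8), the scaffold AJUBA (10.7, 4.18 and 6.34) and the transcription factors TEAD3 (51.1, 23.7 and 31.4) and SRF (114, 53.8 and 73.8). Between genotypes ANKRD1 was the one gene with a 2-fold difference, lower in the transgenic library (5.00%, against 2.10% of all genes). In this list 15 of 20 were above 0 (median 0.14).

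Matrix partners and processing enzymes had the list median nearest to that of the 10 members in both comparisons. Of 21 tested, the diet level was at least 2-fold higher for 10 (47.6%, against 15.9% of all genes) and, for 1, the perlecan gene HSPG2, lower (4.76%, against 6.99%), with a median of 0.96. Between genotypes 18 of 21 were below 0 (median -0.59). LOX and MMP3 were at least 2-fold lower (9.52%, against 2.10% of all genes) and none was 2-fold higher (against 1.70%). TIMP1, the metalloproteinase inhibitor, stood at 73.6, 476 and 268 FPKM, and MMP9, a gelatinase, at 0.166, 6.83 and 4.19. MMP3, which cleaves fibronectin and tenascin C, was listed at 0 on chow and at 5.73 and 0.661. MMP9 passed the minimum of 1 FPKM through its cholesterol libraries, and MMP3 through the non-transgenic one. The calls of MMP3 in both comparisons thus rest on that library. LOX, the collagen and elastin crosslinker, stood at 143, 220 and 107, and BMP1, which processes procollagen and activates LOX, at 35.5, 98.2 and 52.7. The fibrillar collagen genes that periostin and SPARC bind went with them, COL1A1 at 677, 1992 and 1245 and COL1A2 at 702, 1526 and 927, but COL3A1 stood at 2021, 1891 and 1310. CTHRC1 per COL1A1 was 0.000413, 0.0176 and 0.00506, so CTHRC1 differed by more than the collagen did.

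**Figure D4:**
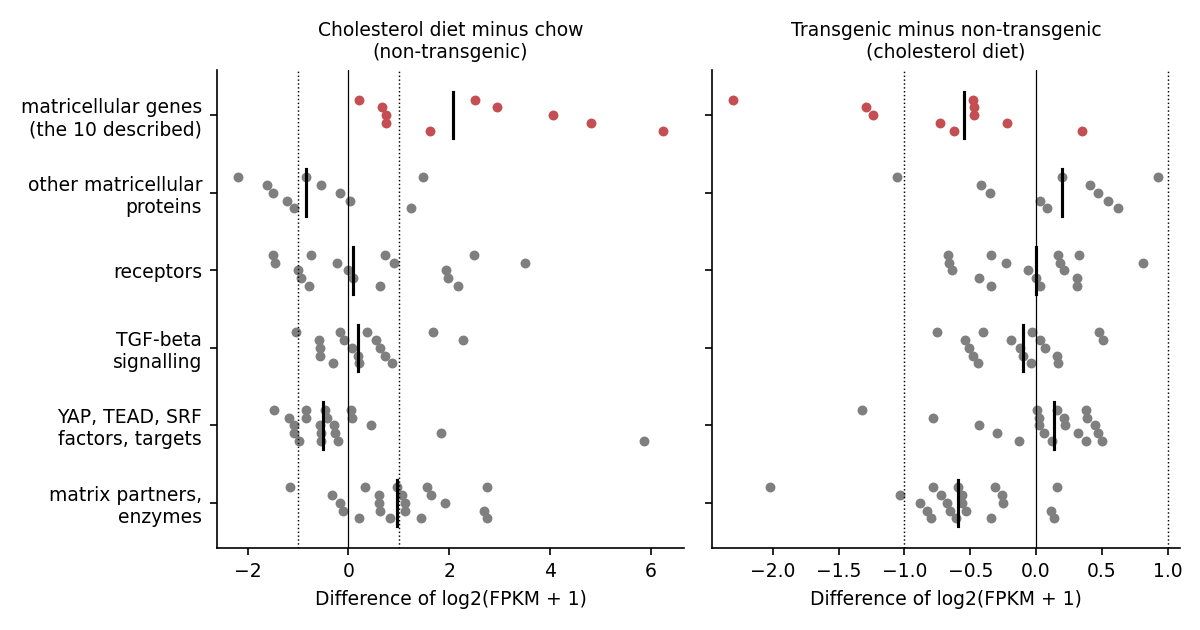
Differences of log2(FPKM + 1) for the 10 matricellular genes (red) and the tested genes of 5 lists of related genes (grey), for the diet (left) and the genotype (right), with 1 point per gene, black bars at the median and dotted lines at 2-fold. The matrix partners (medians 0.96 and -0.59) lie on the same sides as the 10 members (2.06 and -0.55), and the other matricellular proteins (-0.85 and 0.20) on the opposite sides.

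The genes whose pair of differences lay nearest to the members' median, by Euclidean distance over the 2 differences, were PLEKHM1, STK17B, ATP6V1F, CSF1 and MYO10. There were 8099 candidates, each with a symbol, a mean of 5 FPKM or more and a value above 0 in every library. CSF1, the growth factor of macrophages, stood at 26.1, 112 and 73.9 FPKM, PLEKHM1, a lysosomal adaptor, at 6.71, 31.4 and 20.7, and ATP6V1F, a proton pump subunit, at 15.1, 68.2 and 46.3. The kinase gene STK17B stood at 1.53, 9.48 and 6.02 and the unconventional myosin MYO10 at 2.69, 14.9 and 10.1. All 5 lay within 0.056 of that point, over 3 libraries.

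Each member also had a nearest gene by the same measure. For CTHRC1 the nearest was IGJ, the joining chain of antibodies, at 5.52, 181 and 42.3 FPKM and a distance of 0.23. For POSTN it was ATP6AP1L (2.36, 55.4 and 23.3), for THBS1 the WNT antagonist SFRP1 (2.17, 22.1 and 8.46, distance 0.080) and for SPP1 HAVCR1 (0.710, 134 and 114). For TNC it was the mitochondrially encoded COX2, for FN1 ABRACL, for THBS2 WBSCR22, for SPARC ALKBH2, for CYR61 the sialic acid transporter SLC17A5 and for CTGF TTC39B, all within 0.038. CTHRC1 was thus farther from its nearest gene than any other member.

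Markers of other cell types moved with the groups as follows. Contractile smooth muscle genes were at least 2-fold lower on the diet in 8 of 8 cases (median -1.56), against 6.99% of all genes. Between genotypes 8 of 8 were above 0 (median 0.62), and both directions are the reverse of most members. Adventitial fibroblast markers summed to 1250, 760 and 1122 FPKM. On the diet 3 of 8 were at least 2-fold lower (37.5%, against 6.99% of all genes). PI16 is among them and alone, at 411, 0 and 298 FPKM, held most of the difference between those sums. In that list LUM, a collagen-binding proteoglycan, was at least 2-fold higher (12.5%, against 15.9% of all genes), at 85.1, 370 and 196. Between genotypes PI16 (8.22) and DCN (1.03) were at least 2-fold higher (25.0%, against 1.70% of all genes), and none was 2-fold lower. Endothelial markers summed to 90.4, 163 and 195 FPKM. On the diet 2 of 9 were at least 2-fold higher (22.2%, near the 15.9% of all genes). Platelet genes, whose cells store THBS1 and SPARC protein, summed to 1.37, 2.26 and 3.36 FPKM over 4 rows, and PF4, PPBP and GP9 had no row under those symbols. T cell genes summed to 4.27, 7.75 and 3.12 FPKM over 5 rows. Cartilage and bone genes, relevant to the bone matrix roles of SPP1 and SPARC, summed to 18.5, 23.0 and 16.3 FPKM over 9 rows, with SP7 and COL10A1 at 0 on chow. The part of these cell types in the members' values was not tested.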

How the data were processed

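The authors deposited FPKM values, so named per the file headers. Per the submitters' processing notes, the genome build was OryCun2.0. For the aligner, the FPKM program and a scaling between libraries, nothing is given in the sources used here. Libraries were polyadenylated RNA per the labels' protocols, each from 5 rabbits pooled.

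Differences of log2(FPKM + 1) were computed in Python 3.11.15 with pandas 2.3.3 and numpy 2.4.6 over 11597 rabbit genes averaging at least 1 FPKM. With 1 library per group no p-value was computed. The calls were tested on simulated data, which checks the calling steps alone. It cannot show how far pools of rabbits vary, so no conclusion on the differences reported here is drawn from it. The pseudocount understates the change of low genes.

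The absolute depth is unknown. Low values stand in whole-number ratios between libraries, from which the cholesterol libraries held 1.29 (non-transgenic) and 1.25 (transgenic) times the fragments of the chow library. At those constants 84.6% of 65 and 82.6% of 69 genes under 0.05 FPKM lay within 1% of such a ratio. No counting interval could be made.

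Members and lists were chosen with earlier results of these data known. Named genes were the members, the 3 largest diet and the 3 largest genotype differences of each list of related genes, and the nearest genes; others were named after their values were seen. A gene of the TGF-beta list is not reported here. By Entrez identifier, 9 of 10 members matched RefSeq (assembly mOryCun1.1), which gave the current names of CYR61 and CTGF. No sequence is printed. The authors' other 2 sheets repeat these values under titles that do not say what they compare, so their values were not analysed; their column names served, beside the library numbers in the labels, to match columns to libraries.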

Additional observations from a re-analysis of the deposited data

How the results depend on the processing

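The member counts at 2-fold (6 higher for the diet, 3 lower for the genotype, 6 higher for transgenic cholesterol against chow) were the same under both other pseudocounts and all 3 rescalings. The medians ranged from 1.62 to 2.27, from -0.56 to -0.42 and from 1.12 to 1.60, and no member's difference changed sign. Rescaling to equal FPKM sums moved the median of all genes by 0.12 for the genotype and 0.18 for transgenic against chow. Centred on the median of all genes, the members' genotype median was -0.53. With a pseudocount of 5 the differences against chow of CTHRC1 (2.92, and 1.10 for the transgenic library) and TNC (1.63 and 1.25) were smaller, as that pseudocount lies above their chow levels, and the background share fell to 9.64% higher for the diet and 0.828% lower for the genotype. No paired analysis was possible because each group has 1 library, and for the same reason no replicate could be left out.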
